A study of Drosophila melanogaster with 81 samples.

Results

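The cuticle protein genes are the protein-coding genes of Drosophila melanogaster whose symbols begin with Cpr and a digit, Lcp, Ccp84 or Twdl, and 117 of the 13946 protein-coding genes on the placed chromosomes carry such a name. Of 120 symbols that match, 3 are pseudogenes (TwdlU, Lcp1Psi and Lcp65APsi) and were left out, as was the reductase gene Cpr. The 117 genes comprise 70 Cpr, 15 Lcp, 7 Ccp84 and 25 Twdl genes. There are 6 on chromosome arm 2L, 27 on 2R, 45 on 3L, 31 on 3R and 8 on X. They are short, with a median length of 983 bp against 2161 bp for all protein-coding genes. They lie close together: genes whose bodies are within 10 kb of each other form 46 runs, 28 of which hold a lone gene, and 89 genes sit in the other runs.

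The cuticle is the layer of chitin and protein that the epidermis and the tracheae secrete late in embryogenesis, after the ages sampled here. Most Cpr, Lcp and Ccp84 proteins carry the Rebers and Riddiford domain, which binds chitin. The Tweedle proteins, encoded by the Twdl genes, are another family of cuticle proteins, known from dominant TwdlD mutations that make larvae and pupae short and stout. Genes of these families are activated in groups at set times of each moult, and neighbours are often copies of one ancestral gene.

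Chromatin was profiled with CUT&Tag, in which an antibody brings a transposase to a histone mark so that nearby DNA is cut and tagged, in whole embryos of 2 genotypes. Control embryos were w1118. Mutant embryos, here called HisC, were Df(2L)HisC homozygotes that lack the replication-dependent histone genes and also carried P{GAL4-twi.2xPE} on one copy of the chromosome and P{UAS:eYFP}AH2 on the other, and they were picked by their eYFP. Some of the HisC H3K27me3 libraries at 4.5 to 5 h are labelled Df(2L)HisC alone. Genotype, transgenes and selection changed together and cannot be told apart. The H3K27me3 libraries of the older HisC embryos are numbered in another block of the series than the other H3K27me3 libraries. Whether the blocks were prepared apart is not stated in the sources used here.

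Embryos came from 30 min egg lays at 25°C and were aged to 4.5 to 5 h or 5.5 to 6 h, and for H3K4me3 also to 3.5 to 4 h. Peaks of 6 marks were available as 26 lists, 1 for each group of 2 or 3 libraries (59 libraries in all). The lists held 4588 to 13436 peaks. They give positions and no heights, and the sequencing depth is unknown, so a gene at 0 had no called peak and may still carry the mark. Each group has 1 list, so replicate spread could not be measured, no genotype difference was tested, and no p-value is given. Since whole embryos were used, a mark in fewer cells and less of a mark per cell cannot be told apart. The histone gene cluster itself (2L 21416953–21541681) had 0 bp in every list of either genotype, so it gave no check of the labels.

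Each gene was measured over a window of its body with 2 kb on each side. Its value is the percentage of that window covered by peaks, and it counts as marked when a peak overlaps the window by at least 1 bp. A gene is called higher or lower in HisC when its value differs by at least 10 percentage points in the same direction at both later times. Windows of 71 members hold part of another member, so neighbours share peaks and are not independent. Where 2 values are given per genotype, the first is for 4.5 to 5 h and the second for 5.5 to 6 h.

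In w1118 embryos most cuticle protein genes carried none of the 4 marks of histone H3. H3K27me3, the mark laid down by Polycomb repressive complex and tied to silent genes, touched 29 and 22 of the 117 windows. H3K36me3, which covers transcribed gene bodies, touched 18 and 17. H3K4me3, found at active promoters, touched 8 and 7, and H3K27ac, found at active promoters and enhancers, touched 9 and 13. Of all protein-coding genes, 64.1% and 63.6% were marked by H3K36me3, 57.2% and 58.1% by H3K4me3, and 17.5% and 16.5% by H3K27me3. H3K27ac marked 63.9% and 63.3% of all genes. H2AK9ac touched 74 and 82 members, or 63.2% and 70.1%, against 69.9% and 75.5% of all genes. H2BK16ac touched 76 and 93, or 65.0% and 79.5%, against 63.4% and 76.0% of all genes, so for these acetylations the members were near the level of all genes.

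In HisC embryos the number of windows with H3K27me3 was 72 and 67, or 61.5% and 57.3% of the members, against 40.5% and 38.9% of all genes. The mean window coverage of the members was 7.13% in w1118 against 13.0% in HisC, then 5.31% against 14.9%. Over all genes the same means were 5.17% and 6.69%, then 5.00% and 7.76%. The counts for the other H3 marks were also above those of w1118 at each time: 28 and 31 for H3K36me3, 26 and 21 for H3K4me3 and 17 and 20 for H3K27ac. The shares of all genes were likewise above w1118 for H3K36me3 (67.8% and 66.3%) and H3K4me3 (65.4% and 64.6%), and below it for H3K27ac (59.8% and 60.5%). H2AK9ac marked 77 and 71 members and H2BK16ac 89 and 73, more than in w1118 at the earlier time and fewer at the later one. All genes differed in the same directions, with 72.3% and 73.8% marked by H2AK9ac and 75.6% and 73.6% by H2BK16ac.

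**Figure D1:**
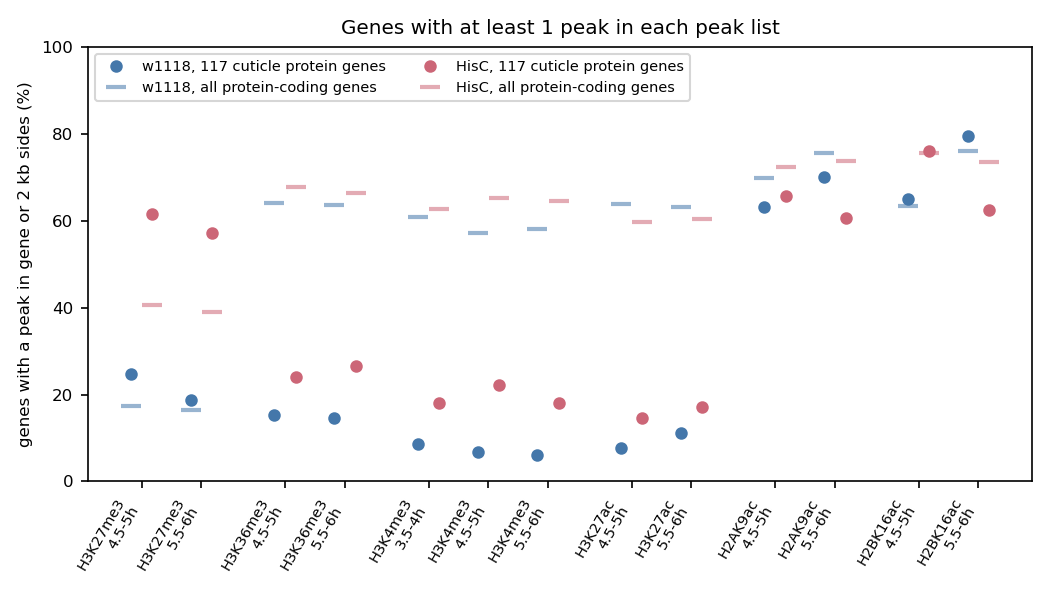
Percentage of genes with at least 1 peak in the gene or its 2 kb sides (y axis) in each of the 26 lists (x axis, mark and age). Circles are the 117 cuticle protein genes and short dashes are all protein-coding genes, with w1118 in blue and HisC in red. For H3K27me3 the members stand at 24.8% and 18.8% in w1118 and at 61.5% and 57.3% in HisC.

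H3K27me3 was higher in HisC over 33 cuticle protein genes, or 28.2% of them, where 10.5% of all protein-coding genes were called higher. These genes lie in 15 of the 46 runs. It was lower over 9 genes, or 7.69%, in 4 runs, against 5.14% of all genes. With calls at 20 points 15 members were higher, against 4.09% of all genes, and over gene bodies alone 5 were lower, against 4.15%. The members' windows had a median of 4983 bp, against 6161 bp for all genes, so a peak of a given width fills more of them. The part of window length in these calls was not tested. Of the 33 genes, 24 had no H3K27me3 peak in either w1118 list, and their HisC values and those of the other 9 ran from 10.6% to 72.2% of the window. The calls were spread unevenly over the families: 13 of 25 Twdl genes and 18 of 70 Cpr genes were higher, with 1 of 15 Lcp genes and 1 of 7 Ccp84 genes. Lower calls fell on 4 Ccp84, 3 Lcp and 2 Cpr genes and on 0 Twdl genes.

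**Figure D2:**
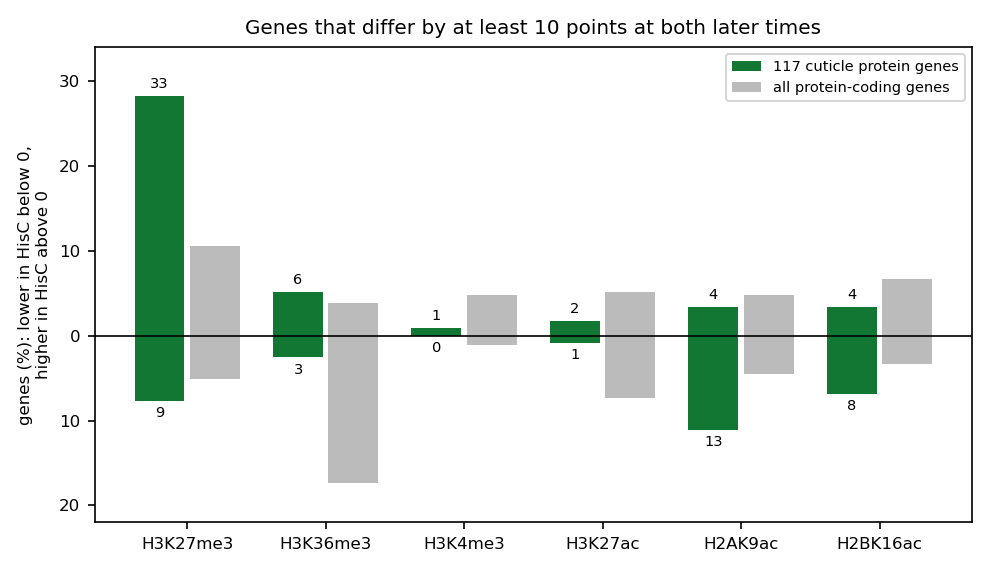
Percentage of genes called higher in HisC (above 0) or lower (below 0) for each of the 6 marks, by at least 10 percentage points at both later times. Green bars are the 117 cuticle protein genes with their number printed, and grey bars are all protein-coding genes. For H3K27me3 the bars reach 28.2% against 10.5% on the higher side and 7.69% against 5.14% on the lower side.

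The 5 genes with the greatest gains, ranked by the smaller of their differences at the 2 times, had no H3K27me3 peak in w1118. TwdlL (3R 26624587–26625652) was at 44.9% and 38.4% of its window in HisC. TwdlT (3R 27049220–27051004) was at 30.5% and 34.6%, under a peak that also reached into the neuropeptide receptor gene RYa-R. TwdlO (3R 26625932–26626738), the neighbour of TwdlL, was at 40.7% and 29.5%. Cpr76Bd (3L 19532743–19538289) was at 27.6% and 31.2%, and Cpr92A (3R 19597502–19598955) at 29.3% and 26.4%. At 4.5 to 5 h the window of Cpr92A held a peak of 637 bp over the gene and part of one of 2170 bp over CG7333. Of the 5 genes, all but TwdlL and TwdlO, which shared a peak, lie in different runs.

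The TwdlM to TwdlD run on 3R (26619118–26641054) holds 12 Tweedle genes and gave 11 of the 33 higher calls. Its merged window was covered to 9.15% and 2.45% in w1118 and to 35.5% and 34.1% in HisC. In w1118 there were 3 peaks at the earlier time, over TwdlJ, TwdlR and TwdlD, and 2 at the later one. In HisC there were 7 at each time. The widest of them, of 3632 bp at 4.5 to 5 h, lay over TwdlD, and another of 2923 bp at 5.5 to 6 h covered TwdlM and most of TwdlP. TwdlD itself (3R 26640025–26641054) was at 27.3% and 6.04% in w1118 and at 72.2% and 23.6% in HisC, lower at the later time in either genotype. TwdlR was the member of the run that was not called, at 10.5% and 6.49% in w1118 and 8.31% and 35.3% in HisC. In HisC 8 of the 12 genes at the earlier time and 10 at the later one had a peak over part of the body, and in w1118 3 and 1 did.

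Other Twdl genes lie apart from this run. TwdlW (3R 17141208–17142404) was at 42.9% and 16.4% in HisC and at 0 in w1118. TwdlQ was at 21.6% and 9.77% in HisC, and TwdlC at 0 and 23.3%, each with 0 in w1118, so neither reached the call. On X, TwdlX, TwdlY, TwdlZ and Twdlalpha had no H3K27me3 peak in any list, as did TwdlE on 2L and Twdlbeta on 2R.

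Several Cpr runs had no H3K27me3 in w1118 and peaks over more than 1 gene in HisC. In the Cpr76Ba to Cpr76Bd run (3L 19517552–19538289) all 4 genes were called higher, with 0% of the merged window covered in w1118 and 17.9% and 18.9% in HisC, and the 3 peaks sat at nearly the same places at both times. The peak over Cpr76Bb had identical ends in the 2 HisC lists (3L 19519611–19520252). The Cpr65Ea to Cpr65Ec run went from 0% to 13.5% and 10.7%, with a peak over the whole of Cpr65Eb at both times and none at Cpr65Ec. The Cpr62Ba to Cpr62Bc run went from 0% to 17.5% and 23.5%, and its peak over Cpr62Bc also had the same ends at both times. Cpr49Aa (2R 12376626–12377378) was at 19.4% and 65.5% in HisC, with 0% and 100% of its body covered, and had no peak in w1118.

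The 65A run (3L 6130386–6161589) is the longest by number, with 17 members, among them Lcp65Ag1, Lcp65Ag2 and Lcp65Ag3, a set of close copies. It had no H3K27me3 in w1118 and 6.01% and 8.09% of its merged window in HisC, and 3 of its genes were called: Lcp65Ae at 32.6% and 20.9%, Cpr65Av at 12.7% and 14.3%, and Cpr65Aw at 13.8% and 42.8%. The body of Lcp65Ae had no H3K27me3 peak in any list, so its values came from peaks beside it. In HisC the body of Cpr65Aw was covered to 0% and 41.5%, and that of Cpr65Av to 67.4% and 65.8%. Apart from a peak of 336 bp over l(3)mbn at one end, the H3K27me3 peaks lay between Lcp65Ag1 and Lcp65Ad. From Lcp65Ab2 to Cpr65Az, 7 neighbouring members had none in any list. Of the 6 members without a peak of any mark, 4 are in this run (Cpr65Au, Lcp65Ag2, Cpr65Ax1 and Lcp65Ab1) and the others are Cpr11B and TwdlZ. Reads from copies as close as these can be lost in mapping, and how reads with several matches were treated is not given in the sources used here.

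The Cpr47Ea to Cpr47Eg run (2R 11251751–11278445), with 7 members, had 0% and 2.06% of its merged window covered in w1118 and 6.09% and 13.0% in HisC. Cpr47Ec was the gene called, at 0 in w1118 and at 10.7% and 19.3% in HisC. These values came from peaks at different places. The one at 4.5 to 5 h lay over CG13223 and not over the body of Cpr47Ec, and the one at 5.5 to 6 h reached both genes. Cpr47Ea was at 0 and 10.7% in w1118 and 0 and 45.2% in HisC, and Cpr47Ee and Cpr47Eg had no H3K27me3 in any list.

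A lower call needs at least 10 points of H3K27me3 in w1118, so such calls could fall only on members that had the mark there. At least 50% of the window was covered in both w1118 lists over 6 genes: Lcp1, Ccp84Ad, Ccp84Ac, Ccp84Ab, Ccp84Aa and Cpr100A. Of these, 5 were called lower in HisC. The share called lower among all genes with such coverage was not computed. Of all genes, 3.99% and 3.95% were covered to at least 50% in w1118, against 1.51% and 2.81% in HisC. Cpr100A (3R 30867521–30869184) was at 58.8% in both w1118 lists and at 33.6% and 56.1% in HisC, and so differed at the earlier time by more than 10 points and at the later one by less. The other 4 genes called lower, Lcp2, Lcp4, Cpr66D and Cpr35B, had between 16.2% and 45.6% in w1118. Values of 0 in w1118 leave no room for a lower call, and 100% leaves none for a higher one.

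**Figure D3:**
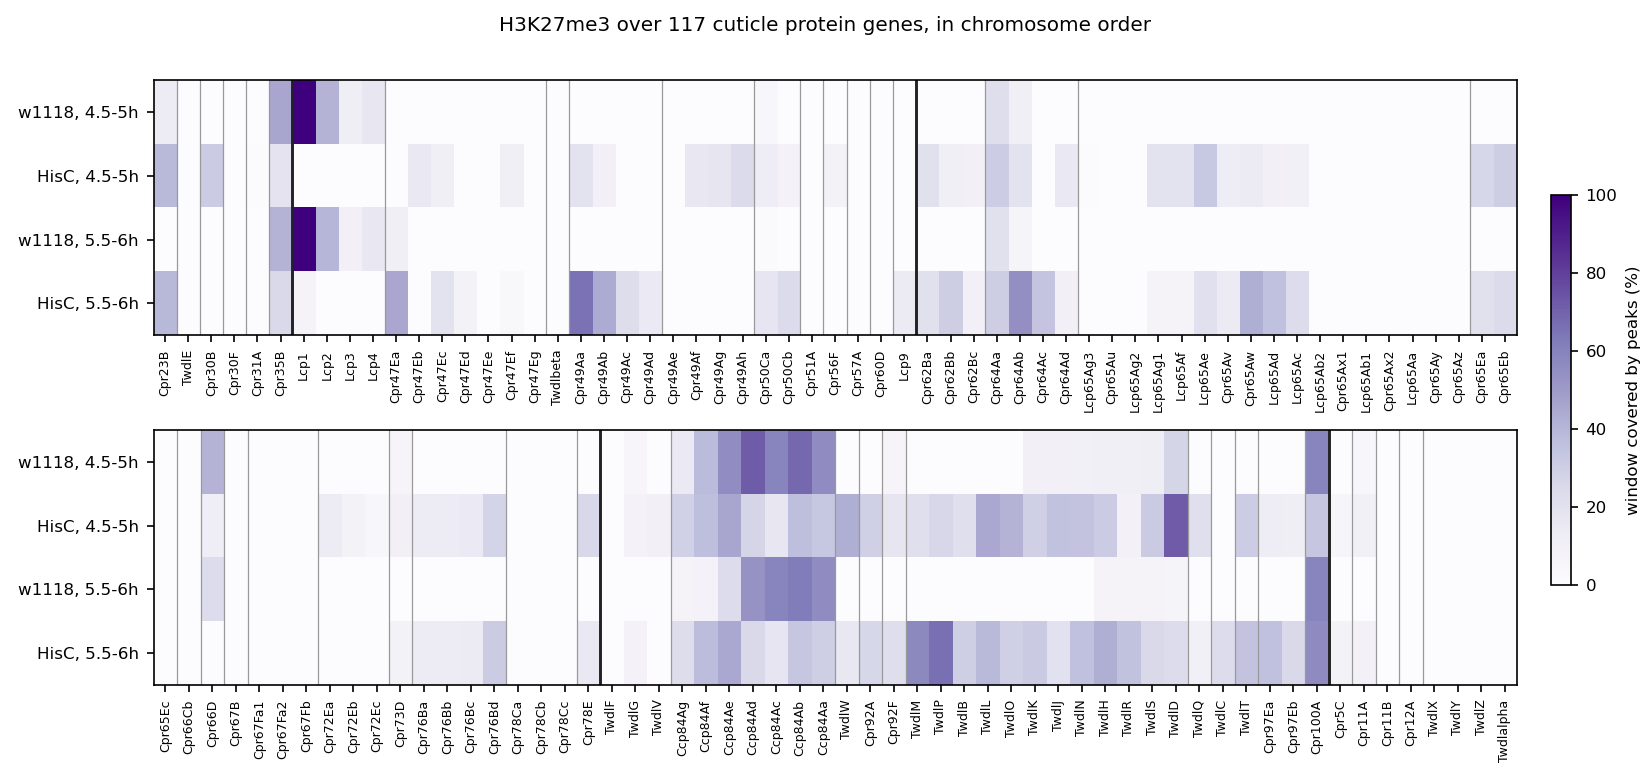
H3K27me3 over each of the 117 cuticle protein genes in chromosome order (columns; the upper panel holds 2L, 2R and part of 3L, the lower panel the rest of 3L, 3R and X) in the 4 later lists (rows). Colour is the percentage of the window covered by peaks, thin lines separate runs and thick lines chromosome arms. Lcp1 is at 100% in both w1118 rows and at 0% and 6.34% in the HisC rows, Ccp84Ad to Ccp84Aa are paler in HisC, and TwdlL, at 0% in w1118, is at 44.9% and 38.4% in HisC.

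Lcp1 (2R 8430115–8431243), which encodes a larval cuticle protein, had the largest difference of any member. Its whole window, 100% at both times, was inside a w1118 peak of 7597 and 7677 bp (2R 8426242–8433838 at 4.5 to 5 h) that also took in CSN7, a COP9 signalosome subunit gene, and the pseudogene Lcp1Psi. These were the widest w1118 peaks over any member. In HisC the value was 0% at the earlier time and 6.34% at the later one, from a peak of 325 bp over one end of the gene, which covered 17.4% of its body. Lcp2, next to it, was at 40.9% and 39.6% in w1118 and Lcp4 at 16.9% and 16.2%, with 0 in HisC, where Lcp3 was also at 0 after 11.1% and 9.63% in w1118. Lcp2, Lcp3 and Lcp4 were the 3 members with H3K27me3 in both w1118 lists and in neither HisC list (2.56%, against 1.53% of all genes). The coverage at Lcp4 came from a separate peak that lies over Cyp4ad1, a cytochrome P450 gene, so of the 4 genes only Lcp1 had its body under a peak for its full length.

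The Ccp84 genes (3R 6686728–6704903) lie in the Antennapedia complex between the Hox genes lab (3R 6661427–6678590) and pb (3R 6707800–6742063). All 7 had H3K27me3 in all 4 lists. Ccp84Ac went from 58.9% at both times in w1118 to 16.7% and 17.5% in HisC, Ccp84Ad from 71.7% and 53.4% to 27.04% and 25.3%, Ccp84Ab from 68.3% and 62.4% to 36.6% and 33.4%, and Ccp84Aa from 55.5% and 55.8% to 33.0% and 29.8%. At the other end of the run, Ccp84Ag was higher in HisC, at 14.6% and 6.44% in w1118 and 29.2% and 22.9% in HisC. Ccp84Af was at 37.8% and 7.70% in w1118 and at 36.7% and 37.5% in HisC. Ccp84Ae was at 55.3% and 23.6% in w1118 and at 45.4% and 44.9% in HisC, lower at the earlier time and higher at the later one.

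From Ccp84Ad to Ccp84Aa the peaks were joined in w1118 and separate in HisC. In w1118 a peak of 3353 and 3202 bp joined Ccp84Ad to Ccp84Ac and another of 3355 and 3006 bp joined Ccp84Ab to Ccp84Aa. In HisC each of these 4 genes had a peak of its own, between 449 and 1187 bp wide, and a gap between it and its neighbour's peak. The 4 gene bodies stayed at least 50% covered in all 4 lists. That of Ccp84Ab was at 100% in both w1118 lists and at 100% and 98.2% in HisC, and that of Ccp84Ac at 90.7% in both w1118 lists and at 59.3% and 59.2% in HisC. In HisC, peaks were also called beyond the other end of the run over Edg84A, another cuticle protein gene. These reach the window of Ccp84Ag and count in its value. The window of Edg84A itself was at 26.8% and 22.4% in w1118 and at 22.7% and 43.1% in HisC.

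**Figure D4:**
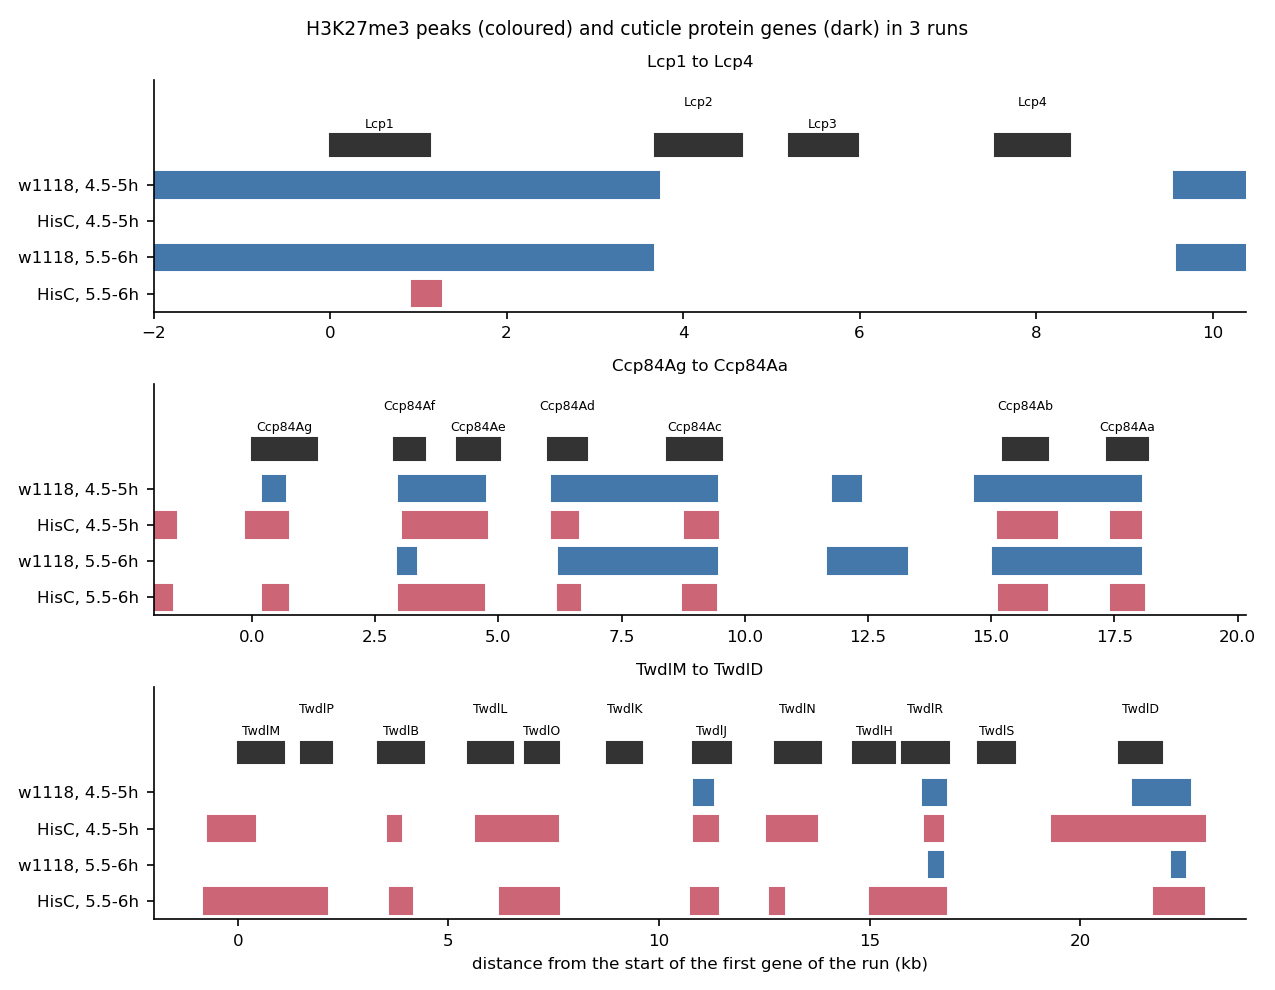
H3K27me3 peaks (coloured bars, w1118 in blue and HisC in red, 1 row per list) and cuticle protein genes (dark bars) in 3 runs, against the distance in kb from the start of the first gene of the run; peaks that go on past the edge are cut there. At Lcp1 to Lcp4 the w1118 peaks are absent from HisC apart from 1 of 325 bp, at Ccp84Ag to Ccp84Aa the wide w1118 peaks stand as narrow ones over the genes, and at TwdlM to TwdlD HisC has 7 peaks at each time against 3 and 2.

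Over all members, H3K27me3 in HisC covered gene bodies more than the DNA beside them. In HisC, 20.8% and 23.7% of the bases in member bodies were covered and 9.36% and 11.3% of the bases in their sides, a ratio of 2.22 and 2.10. In w1118 the shares were 7.74% and 4.95% in bodies and 6.20% and 4.73% in sides. For all protein-coding genes in HisC the ratio was 1.26 and 1.18. Of the HisC peaks in the members' windows, 46 of 67 and 45 of 62 had their centre in a member's body, while member bodies make up 40.2% of the windows. In w1118 it was 10 of 20 and 6 of 15. Bodies covered to at least 50% numbered 25 and 29 in HisC, where 6.70% and 8.05% of all genes reached this. In w1118 they numbered 14 and 9, against 5.51% and 5.18% of all genes. Members are shorter than most genes, and the part of length in these shares was not tested.

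**Figure D5:**
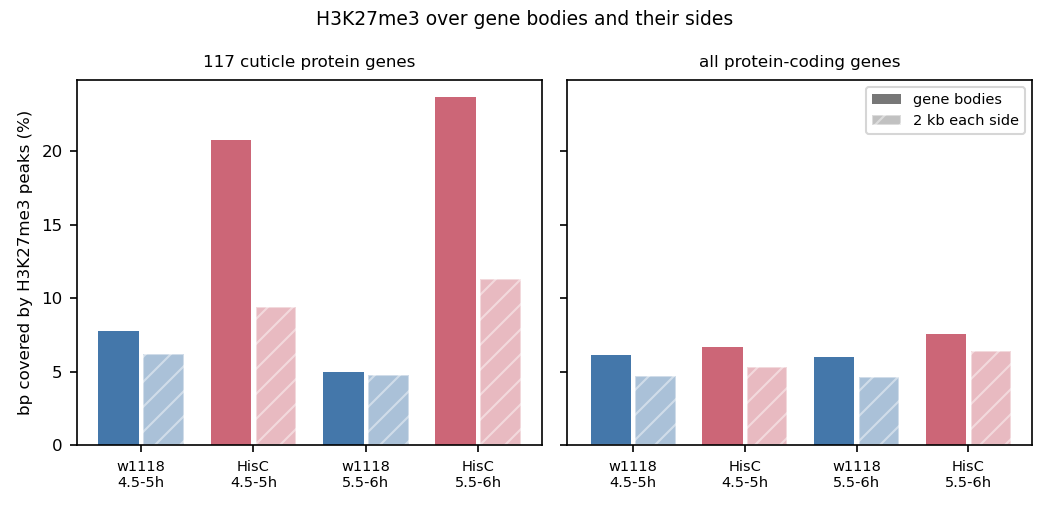
Percentage of bases covered by H3K27me3 peaks (y axis) in gene bodies (solid) and in the 2 kb on each side (hatched), for the 117 cuticle protein genes (left) and all protein-coding genes (right), in the 4 later lists (x axis; w1118 in blue, HisC in red). In HisC the member bodies stand at 20.8% and 23.7% and their sides at 9.36% and 11.3%.

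Of the 67 and 62 HisC peaks of H3K27me3 in the members' windows, 31.3% and 25.8% met a w1118 peak of the same age by at least 1 bp, against 43.2% and 41.7% of all HisC peaks. More than 10 kb separated 37 and 31 of them (55.2% and 50.0%) from the nearest w1118 peak, against 42.9% and 43.9% of all HisC peaks. Their median width was 731 and 1012 bp, and that of the 20 and 15 w1118 peaks was 1293.5 and 1176 bp. In all, 35 members (29.9%) had H3K27me3 in both HisC lists and in neither w1118 list, against 18.0% of all genes, and 34 members had none in any list.

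The 2 HisC lists of H3K27me3 were less alike than the 2 w1118 lists, over the members and over the genome. The libraries of the 2 w1118 lists are numbered in 1 block of the series, and those of the 2 HisC lists in different blocks. The lower likeness in HisC therefore cannot be told apart from a difference between blocks. At the later time block changed together with genotype, and every H3K27me3 call at both times needs that time. The part of the blocks was not tested. Shared bases made up 67.1% of the united bases of the 2 times in w1118 and 43.5% in HisC over the members, and 68.2% and 48.6% over the genome. Between the genotypes at one time they made up 20.3% and 11.9% over the members and 26.8% and 28.4% over the genome. In w1118, 1 member (Cpr47Ea) was higher at the later time by at least 10 points, against 2.35% of all genes, and 6 were lower, against 3.05%. In HisC, 21 were higher, against 8.61% of all genes, and 16 were lower, against 4.55%. The later gains in HisC included Cpr49Aa, Cpr47Ea, TwdlM and TwdlP, and the later losses TwdlD, TwdlW, Cpr30B and Cpr49Ah. Each of these comes from 1 pair of lists, so time and the preparation of the lists cannot be told apart.

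H3K36me3 was higher in HisC over 6 members (5.13%, against 3.88% of all genes) and lower over 3 (2.56%, against 17.3%). Cpr49Ag (2R 12407793–12408523) went from 0 in w1118 to 44.8% and 48.8% in HisC, and its neighbour Cpr49Af from 0 to 37.1% and 28.3%, under shared peaks of 1863 and 2311 bp that also reach CG30050. Cpr67Fb (3L 10894173–10894693) was at 11.02% and 13.6% in w1118 and at 33.8% and 67.3% in HisC, and Cpr67Fa2 went from 0 to 16.1% and 51.2%. The HisC peaks there also lie over the antisense RNA gene CR45171, from which Cpr67Fb cannot be separated since the assay reads no strand. Ccp84Aa and Ccp84Ab, which also carried H3K27me3 in HisC, went from 0 to between 10.7% and 15.0%, under a peak in Ccp84Ab. The 3 genes called lower were Lcp9, Twdlalpha and Cpr66Cb. Lcp9 (2R 24779979–24780428) was at 32.1% and 39.6% in w1118 and 4.202% and 12.1% in HisC, and Twdlalpha was at 31.5% and 24.2% against 7.52% and 7.16%. Cpr66Cb was at 16.7% and 22.4% against 0 and 5.49%. The w1118 peaks at Lcp9 and Cpr66Cb lay over other genes in the window: egg, CG3594 and TyrRS-m beside Lcp9, and Pex2 and Prim1 beside Cpr66Cb. When bases inside other genes were left out, 0 members were lower. In both HisC lists and neither w1118 list 13 members had a peak, or 11.1% against 4.09% of all genes. Only genes with no H3K36me3 peak in w1118 can be counted so. In w1118, 15.4% and 14.5% of members were marked, against 64.1% and 63.6% of all genes, so these shares are not like for like.

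H3K4me3 differed at few members. Cpr67Fb was called higher (0.855% of members, against 4.84% of all genes) and 0 were called lower, against 1.12%. Over gene bodies alone 5 were higher, against 8.69% of all genes. Cpr67Fb had 0 in w1118 and 12.9% and 14.4% in HisC, from a peak over the neighbouring gene Aps and not over its own body. In w1118 the mark in member windows lay mostly at other genes: 8 of 10 peaks at 4.5 to 5 h and 7 of 9 at 5.5 to 6 h lay at an end of a gene outside the families and at no member's end. Cpr73D, which overlaps Ogdh, was the 1 member with an H3K4me3 peak over its body in w1118 at 4.5 to 5 h, and 0 members had one at 5.5 to 6 h. In HisC 12 and 7 members did, among them Cpr47Ea, Cpr49Ae, Cpr64Aa, Ccp84Ac and Cpr97Ea at both times. Of all genes, 42.5% and 43.4% had an H3K4me3 peak over the body in w1118 and 47.2% and 48.1% in HisC. In HisC 23 of 28 and 16 of 24 H3K4me3 peaks in member windows lay at no gene end. That share was not computed over the genome. Peaks in both HisC lists and in neither w1118 list were seen at 9 members, or 7.69%, against 5.14% of all genes. In w1118, 6.84% and 5.98% of members were marked, against 57.2% and 58.1% of all genes, so these shares are not like for like.

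The 7 members with H3K4me3 in their windows in all 4 later lists were Cpr31A, Cpr47Eg, Cpr56F, Cpr57A, Cpr60D, Lcp9 and Cpr66Cb. Their bodies had no H3K4me3 peak in any list, and the peaks lay over other genes, such as Pen, Vhl and Pex2. Of the 7, 0 had H3K27me3 in the window in w1118. The share of all genes with H3K4me3 in all 4 lists was not computed. At 3.5 to 4 h, 7 members had more H3K4me3 in HisC, against 8.71% of all genes, and 4 had less (Cpr31A, Cpr60D, Lcp9 and Cpr66Cb), against 10.6%. Cpr49Ae, Cpr49Af and Cpr49Ag each had a peak over the body in HisC at this age and none in w1118. The HisC list of that age is named as leaving something out, and what was left out is not stated.

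H3K27ac was higher in HisC at TwdlE and Cpr67Fb (1.71%, against 5.16% of all genes) and lower at Cpr31A (0.855%, against 7.36%). TwdlE (2L 7857957–7860839), whose body overlaps lectin-28C, was at 0 and 7.12% in w1118 and 28.0% and 32.5% in HisC. Cpr67Fb was at 0 in w1118 and at 16.7% at both times in HisC, again over Aps. Cpr31A (2L 10054213–10055935) was at 22.6% at both times in w1118 and 2.01% and 3.46% in HisC, from a peak over the importin gene Pen whose edge was farther from Cpr31A in HisC.

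H2AK9ac was lower in HisC over 13 members (11.1%, against 4.55% of all genes) and higher over 4 (3.42%, against 4.80%). Over gene bodies alone 10 were higher (7.08% of all genes) and 13 lower (5.70%). The 5 largest losses were at TwdlS, TwdlE, TwdlR, Cpr64Ac and Cpr64Ab. TwdlS was at 31.3% and 23.7% in w1118 and 6.78% and 0 in HisC, and TwdlR, which shares its window, at 32.4% and 22.5% against 6.45% and 0. The body of TwdlS had no peak of any mark in any list, so its values came from peaks beside it. TwdlE was at 29.4% and 33.5% against 0 and 10.4%, and so had less H2AK9ac and more H3K27ac in HisC. Cpr64Ac was at 33.0% and 28.2% against 7.43% and 7.11%, and Cpr64Ab at 42.4% and 30.0% against 7.90% and 12.2%. The 4 gains were at Cpr49Aa (15.6% and 11.5% in w1118 and 36.2% and 63.0% in HisC), at Cpr49Ab beside it, and at Cpr72Eb and Cpr72Ec, which are neighbours too.

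H2BK16ac was lower in HisC over 8 members (6.84%, against 3.31% of all genes) and higher over 4 (3.42%, against 6.67%). Over gene bodies alone 8 were higher (8.48% of all genes) and 8 lower (4.36%). TwdlW was at 40.8% and 26.8% in w1118 and 20.2% and 5.93% in HisC, TwdlO at 19.3% and 48.8% against 0 and 11.8%, and Ccp84Af at 32.2% and 32.3% against 15.6% and 4.83%. TwdlT was at 29.9% and 42.7% against 17.9% and 20.7%, and Cpr57A at 32.4% and 42.0% against 20.9% and 0. Cpr49Aa was higher, at 9.93% and 10.9% in w1118 and 53.2% and 34.2% in HisC. Cpr47Eg, Cpr47Eb and TwdlF were the other 3 gains. The bodies of Cpr47Eg and Cpr47Eb had no H2BK16ac peak in any list, so their values came from peaks beside them.

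For these 2 acetylations the lists of one genotype at the 2 times were about as unlike as the lists of the 2 genotypes at one time. Over the members, shared bases made up 26.6% to 28.7% of the united bases between times and 20.5% to 26.8% between genotypes. Over the genome these shares were 22.3% to 32.9% and 22.4% to 25.0%. In H2AK9ac, 12 members (10.3%, against 6.39% of all genes) differed by at least 10 points in opposite directions at the 2 times, and in H2BK16ac 9 did (7.69%, against 6.46%).

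Several members that gained H3K27me3 were among those that lost acetylation. Of the 13 members with less H2AK9ac, 7 had more H3K27me3 (53.8% of the 13 and 21.2% of the 33): Cpr23B, Cpr62Ba, Cpr62Bb, TwdlM, TwdlP, TwdlH and TwdlS. Over all genes, 13.7% of those with less H2AK9ac had more H3K27me3. Of the 8 with less H2BK16ac, 4 had more H3K27me3 (50.0% of the 8 and 12.1% of the 33): TwdlW, TwdlL, TwdlO and TwdlT. For all genes that share was 11.7%. Whatever their acetylation, 28.2% of the members had more H3K27me3, against 10.5% of all genes. The shares of 53.8% and 50.0% are therefore also to be read against the members' own 28.2%. Whether they differ from it was not tested. Several of the genes named here are neighbours and share peaks, so they are not independent places. The body of TwdlS had no peak of either mark in any list, and that of TwdlP had no H2AK9ac peak in any list. Cpr49Aa went the other way, with more H3K27me3, H2AK9ac and H2BK16ac in HisC.

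The overlap of H3K27me3 with other marks over the members was higher in HisC for some marks and not for others. In w1118, 0 bp of the members' H3K27me3 was shared with H3K36me3 or H3K4me3 at either later time, against 6.48% and 6.33% over the genome for H3K36me3 and 3.67% and 3.92% for H3K4me3. In HisC, 7.61% and 5.75% of it was shared with H3K36me3 and 8.48% and 2.64% with H3K4me3, below the genome's 16.6% and 12.3% and its 12.7% and 10.1%. At Ccp84Ab in HisC at 4.5 to 5 h the peaks of H3K27me3 (3R 6701877–6703063), H3K36me3 (6701939–6702673) and H3K4me3 (6701946–6702579) lay on top of each other. With H2BK16ac, 29.8% and 29.9% of the members' H3K27me3 was shared in w1118 and 51.8% and 44.5% in HisC, and the genome's share was 16.9% and 17.6% in w1118 and 39.3% and 27.03% in HisC. With H2AK9ac the members' share was 39.3% and 21.9% in w1118 and 36.8% and 31.7% in HisC, lower at the earlier time and higher at the later one. With H3K27ac it was 3.46% and 1.78% in w1118 and 1.59% and 3.14% in HisC, in the same directions. Lists from a mixture of cells cannot show whether the marks were on the same nucleosomes.

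Other genes of cuticle formation were read for comparison from 4 lists, beside the 10.5% of all genes that were higher and the 5.14% that were lower. Of 13 further cuticle protein genes (of 15 listed), H3K27me3 was higher in HisC at obst-B and Crys and lower at Tb, a Tweedle gene known from the Tubby mutation, which was at 59.7% and 62.4% in w1118 and 23.5% and 26.8% in HisC. Of 21 genes of chitin synthesis and assembly, it was higher at 3 (Cht7, kkv and Idgf4) and lower at 2 (Idgf1 and Idgf3). The chitin synthase gene kkv (3R 5378093–5392866) was at 0 in w1118 and 22.0% and 33.1% in HisC. Of 9 genes of tanning, 0 were called in either direction, with Ddc at 0 in w1118 and 14.8% and 7.63% in HisC. Of 13 transcription factors of epidermis and cuticle, 0 were higher and 4 were lower: SoxN, grh, rib and E(spl)m8-HLH. Counts this small say little against those shares. The grainy head gene grh (2R 17801132–17842820), which drives cuticle genes, was at 32.4% and 34.1% in w1118 and 21.3% and 15.3% in HisC.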

How the data were processed

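The authors deposited, for each group of libraries, a list of peaks with chromosome, start and end; the unit here is a position in bp, with no count, score or p-value. The names of the deposited lists give narrow peaks for H3K4me3 and H3K27ac and broad peaks otherwise, so levels are compared within a mark only. Per the submitters' processing notes, the genome build was dm6 and the tools included Bowtie2 (version 2.3.4.2), deepTools (3.3.1), SAMtools (1.9), Trim Galore (0.6.6) and cutadapt (1.17). Not given in the sources used here are the caller of the peaks and its threshold, the treatment of reads with several matches, and how libraries became 1 list. Deeper sequencing can add and widen peaks, and depth per library is unknown. The other 22 libraries (histone H1, RNA polymerase II and embryos with the CyO balancer) were not analysed here.

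Gene positions came from the RefSeq table for Release 6 of the genome (dm6), which has no strand or transcripts, so promoters, exons and introns were not separated and no sequence is shown. Coverage of windows, bodies and sides was computed in Python 3.11.15 with numpy 2.4.6 and pandas 2.3.3, and tested on simulated peaks. Called genes were counted beside all 13946 protein-coding genes. With 1 list per group no statistical test between genotypes was run. Named genes were, per mark and direction, up to 5 members with the largest smaller difference; members with at least 50% of the window under H3K27me3 in both later w1118 lists; those of the runs with most members; and Lcp1 to Lcp4, the Ccp84 genes and TwdlD. Other genes, such as neighbours under a peak, were named after their values were seen. The members, the gene lists and the rules were chosen with earlier results of these data known. The alternatives took only peaks from 500 bp up, the widest peaks in equal number per list, gene bodies alone, calls of at least 20 points, bases of other genes left out, and each later time alone.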

Additional observations from a re-analysis of the deposited data

Results flagged for a closer look

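The mean difference of the 117 members in H2BK16ac, HisC minus w1118, was 0.26 percentage points of the window at 4.5 to 5 h and -2.69 points at 5.5 to 6 h, so its sign changed between the times. Over all genes the means were 3.34 and -0.92 points. Ccp84Ae was listed here because its H3K27me3 difference was -9.89 points at 4.5 to 5 h and 21.3 points at 5.5 to 6 h. In w1118 its value fell from 55.3% to 23.6% between the times, and in HisC it was 45.4% and 44.9%. Neither difference between the times was tested, as each group has a single list.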

How the results depend on the processing

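Of 84 counts of called members under 7 alternatives, 46 were within 1.5 times of the reported one and 38 were not. Percentages in brackets are shares of all genes. Members higher in H3K27me3 numbered 33 as reported (10.5%) and 32 with peaks of at least 500 bp (9.85%). With equal numbers of the widest peaks they numbered 22 (7.67%), and over gene bodies 29 (10.2%). Without bases of other genes, where no share of all genes is given, they numbered 27 (107 members had any left). At 20 points they numbered 15 (4.09%), and at each time alone 44 (15%) and 48 (17.5%). Over gene bodies alone, 5 were lower in H3K27me3 (4.15%), 1 lower in H3K36me3 (16.1%) and 5 higher in H3K4me3 (8.69%). Also over bodies, 0 were lower in H3K27ac (7.92%), 10 higher in H2AK9ac (7.08%) and 8 higher in H2BK16ac (8.48%). With equal numbers of widest peaks 3 were higher in H3K36me3 (3.51%) and 1 lower in H3K4me3 (2.77%). Without bases of other genes 0 were lower in H3K36me3, 0 higher in H3K4me3, and 1 higher and 0 lower in H3K27ac. At 20 points the counts were 3 higher (1.27%) and 1 lower (9.03%) for H3K36me3 and 0 higher (0.509%) for H3K4me3. They were 1 higher (0.839%) and 0 lower (1.27%) for H3K27ac. For H2AK9ac they were 1 (0.868%) and 4 (0.774%), and for H2BK16ac 1 (1.29%) and 1 (0.71%). At 4.5 to 5 h alone they were 7 lower (21.3%) for H3K36me3 and 4 higher (6.82%) and 2 lower (5.47%) for H3K4me3. For H2AK9ac they were 18 (15%) and 26 (17.8%), and for H2BK16ac 23 (25.4%) and 22 (11.3%). At 5.5 to 6 h alone they were 10 higher (7.54%) for H3K36me3 and 3 higher (14.4%) and 1 lower (1.69%) for H3K4me3. For H3K27ac they were 6 (9.54%) and 2 (17.2%). For H2AK9ac they were 16 (18.3%) and 35 (17.8%), and for H2BK16ac 17 (15.4%) and 26 (18.2%). Calls at one time alone need fewer conditions and calls at 20 points more; the cause of the other moves was not tested.

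No paired analysis was possible because each list is pooled over its libraries and carries no replicate number, and leaving out a replicate was not possible for the same reason. The depth behind the peak calls is unknown, and a value of 0 means no called peak.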
